A study of Homo sapiens with 6 samples.

Results

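The genes described here were the nuclear-encoded structural subunits of respiratory complexes II, III, IV and V, 38 genes of the 60671 annotated genes in the expression matrix. They were taken from a list of names and not from their values, with 4 genes of complex II, 9 of complex III, 10 of complex IV and 15 of complex V. Every one of the 38 was found in the matrix, and every one passed the filter of at least 1 TPM (a transcript level scaled by length and by the total of the sample) in at least 3 of 6 samples. The samples came from tumors that MDA-MB-231 cells, a human triple-negative breast cancer line of wild-type genotype, had formed after orthotopic injection into the mammary fat pad of young female NSG mice, which lack T, B and NK cells but keep other host cells. RNA was sequenced from the tumor core (TC, 3 samples) and the tumor margin (TM, 3 samples), and both regions carried the same cells, the same injection and no drug. The comparison asks how the inner, poorly supplied zone of a tumor differs from its outer zone. The labels do not say whether a core and a margin sample came from the same mouse, and p-values measure only the spread between these samples.

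Complex II oxidizes succinate in the citric acid cycle and passes the electrons to coenzyme Q. Complex III hands them on to cytochrome c, complex IV passes them to oxygen, and complexes III and IV pump protons that complex V, the ATP synthase, lets back to make ATP. Complex II is built from nuclear genes alone, whereas complexes III, IV and V each join nuclear-encoded subunits to a few made inside the mitochondrion, so their supply depends on both genomes.

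Across the 13861 genes tested (limma on log2(TPM + 1), Benjamini-Hochberg adjusted p under 0.05), no subunit of complexes II to V was called in either direction, against 1 gene called higher in TC (0.00721% of all genes) and 18 called lower (0.13%). At an unadjusted p under 0.05, 5 subunits were higher in TC (UQCRQ, UQCRB, COX7C, ATP5F1E and ATP5MG), which is 13.2% of the 38 where 1.93% of all genes were. SDHA alone was lower at that level, 2.63% of the 38 where 14.2% of all genes were. All 3 TC samples lay above all 3 TM samples for 7 subunits (18.4%, against 3.28% of all genes), namely UQCRB, COX7C, COX5B, COX6C, ATP5F1E, ATP5MG and ATP5PD. All 3 TC samples lay below for SDHA and ATP5F1A (5.26%, against 18.9% of all genes).

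The matrix as a whole was shifted toward TM, and most of the subunits lay above that shift. The median difference TC minus TM over all genes was -0.136 on the log2 scale, with 33.0% of genes higher in TC, whereas the median over the 38 subunits was 0.104 (range -0.344 to 0.536), which is 0.239 above the median of all genes. Of the 38, 27 were higher in TC and 11 lower, and 35 lay above the median of all genes. Rescaling the samples by median-of-ratios factors brought the median of all genes to 0.049. After it, 36 subunits were higher in TC, where 56.1% of all genes were, with a median 0.264 above that of all genes. SDHA and ATP5F1B were the exceptions. After that rescaling, 12 subunits were higher at an unadjusted p under 0.05 (31.6%, against 6.81% of all genes), none was lower (against 6.7%) and none was called after adjustment. Of the 11 subunits lower in TC from TPM as deposited, 9 were thus higher after median-of-ratios rescaling. Quantile normalization gave fewer, with 26 subunits higher in TC, where 51.7% of all genes were. At an unadjusted p under 0.05, 6 subunits were then higher and 2 lower, against 737 and 1124 of the 13861 genes. The median over the subunits exceeded that of all genes by 0.088 (quantile normalization) to 0.317 (without TC sample 1) under the alternatives run.

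**Figure D1:**
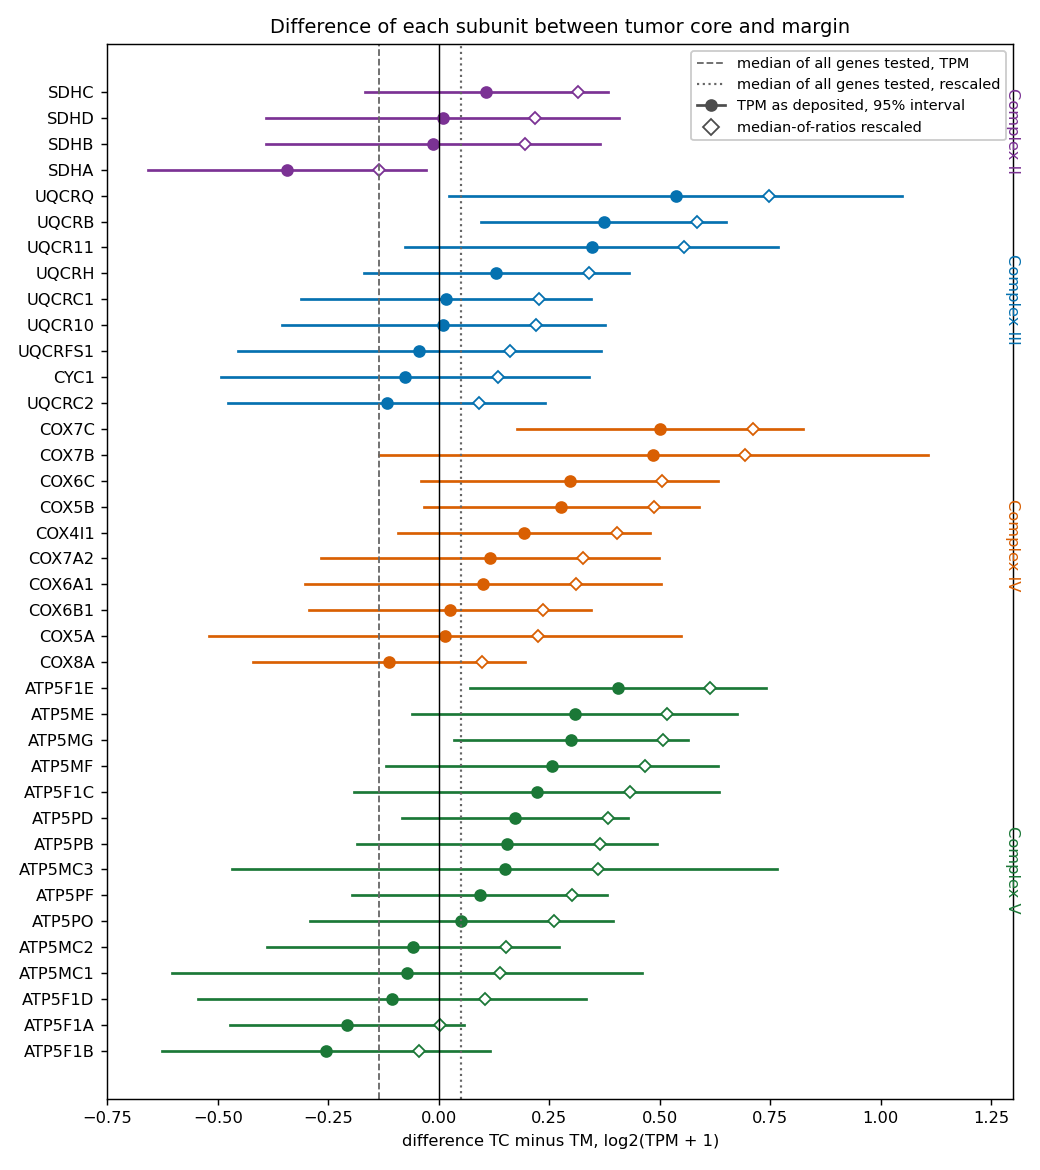
Difference TC minus TM in log2(TPM + 1) for each of the 38 subunits, in blocks by complex; filled circles with lines are the values from TPM as deposited with 95% intervals from limma, open diamonds the values after median-of-ratios rescaling, and the vertical dashed and dotted lines the medians of all genes tested before (-0.136) and after (0.049) rescaling. Subunits of complexes III, IV and V reach 0.536, 0.501 and 0.405, and SDHA is lowest at -0.344.

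The sequence before the start of these genes carried shared letters that the list did not use. RefSeq promoter windows (GRCh38.p14, 250 bases before to 50 after the start) existed for 30 of the 38 genes, 35 windows in all, and those of SDHC, CYC1, UQCRB, COX6C, ATP5F1B, ATP5F1D, ATP5MC3 and ATP5MF were not found. The site read by nuclear respiratory factor 1, GCGCATGC on either strand, was in 25.7% of the subunit windows, compared with 3.05% of all 35116 windows and 4.82% of the 14833 windows of genes tested. The core read by ETS factors including GABP, CCGGAAG on either strand, was in 45.7% of subunit windows, compared with 10.3% of all and 17.1% of those of tested genes. For AAGATGGC, read by YY1, the shares were 17.1%, 2.89% and 4.81%. The SP1 core GGGCGG was in 54.3% of subunit windows and 66.1% of the windows of tested genes, CCAAT in 37.1% and 34.7%, and the hypoxia response core ACGTG in 25.7% and 25.7%. The letters were searched on both strands, the SP1 and ETS letters can abut, and a match is a description of the sequence and not a bound site. The stretches shown lie before the start and outside annotated exons. A window of each of SDHB, SDHD, COX5B, COX6A1, ATP5PF and ATP5ME holds both the NRF1 and the ETS letters. SDHB and COX5B are shown because the NRF1 letters also lie in the stretch that could be shown. UQCRQ, COX7C and ATP5F1E are shown because each had the smallest p of its complex among genes with a window. Capitals mark any of the 6 motifs on either strand.
SDHB chr1:17054171-17054282, minus strand: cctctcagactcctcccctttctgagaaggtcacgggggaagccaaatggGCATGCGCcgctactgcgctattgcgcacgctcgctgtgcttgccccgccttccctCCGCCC
COX5B chr2:97645890-97646039, plus strand: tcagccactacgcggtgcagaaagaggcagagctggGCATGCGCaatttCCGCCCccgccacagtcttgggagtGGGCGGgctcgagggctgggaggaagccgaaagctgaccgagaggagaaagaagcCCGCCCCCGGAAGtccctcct
UQCRQ chr5:132866392-132866513, plus strand: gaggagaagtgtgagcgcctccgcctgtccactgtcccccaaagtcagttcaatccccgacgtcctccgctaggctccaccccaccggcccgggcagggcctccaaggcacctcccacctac
COX7C chr5:86617754-86617903, plus strand: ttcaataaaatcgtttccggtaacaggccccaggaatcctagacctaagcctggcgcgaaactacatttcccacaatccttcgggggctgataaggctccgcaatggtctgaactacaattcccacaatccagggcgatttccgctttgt
ATP5F1E chr20:59032383-59032532, minus strand: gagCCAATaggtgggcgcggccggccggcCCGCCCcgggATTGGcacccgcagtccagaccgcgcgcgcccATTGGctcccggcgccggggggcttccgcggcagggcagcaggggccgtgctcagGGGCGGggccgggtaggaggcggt
The SDHB stretch holds the NRF1 letters and an SP1 match, whereas the ETS letters of its window lie outside the stretch. In COX5B the NRF1 letters, 3 matches of the SP1 core and the ETS letters follow each other within 150 bases, and the last SP1 match runs directly into the ETS match. ATP5F1E holds 3 CCAAT and 2 SP1 matches and neither NRF1 nor ETS letters. The stretches of UQCRQ and COX7C, both among the subunits with the largest differences, hold none of the 6, although the full windows hold the ETS letters in UQCRQ and the SP1 core in COX7C.

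Complex II had the lowest summed level of the 4 complexes, and SDHA was its only subunit without overlap between core and margin. SDHA (ENSG00000073578, chr5:218241-256700, GRCh38), the flavoprotein that binds succinate, was measured at 71.7, 77.3 and 78.5 TPM in TC samples 1, 2 and 3, compared with 108, 99.1 and 83.6 TPM in TM samples 1, 2 and 3, an order kept throughout. Each TC sample was below each TM sample, and the means were 75.8 ± 3.66 TPM and 97.0 ± 12.5 TPM (SD, n = 3 each). The difference on log2(TPM + 1) was -0.34 (SE 0.137, 95% interval -0.658 to -0.030), with a limma adjusted p of 0.268, and it was -0.135 after median-of-ratios rescaling. SDHB, the iron-sulfur subunit, was at 103, 113 and 127 TPM in TC and at 124, 133 and 92.7 TPM in TM, with overlap.

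The membrane anchors SDHC and SDHD hold the heme and the coenzyme Q site. SDHC (ENSG00000143252, chr1:161314257-161375340) was the steadiest of the 4, with 64.9, 65.8 and 62.9 TPM in TC and 56.9, 63.0 and 59.7 TPM in TM. Its difference was 0.107 (SE 0.12, limma adjusted p = 0.728) between means of 64.5 ± 1.48 and 59.9 ± 3.07 TPM (SD, n = 3 each). SDHD ranged from 63.8 to 92.9 TPM with both ends in TM samples, and TIMM8B, at 62.9 TPM on the opposite strand, shares part of its exons. Divided by SDHB within each sample, a ratio that one scaling factor per sample cannot move, SDHA was at 0.694, 0.684 and 0.617 in TC and 0.872, 0.747 and 0.902 in TM. Divided by SDHC it was at 1.1, 1.17 and 1.25 in TC and 1.9, 1.57 and 1.4 in TM. Neither pair of ranges overlapped, and these pairs were picked once the values were known. Copies limit the SDHA value, since 4 same-named pseudogenes summed to as much as 25.2% of its TPM in a sample and reads may be split among them.

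In complex III, UQCRB and UQCRQ alone of 9 subunits had a limma unadjusted p under 0.05, each with its larger mean in TC. No subunit of the complex passed the adjusted threshold. Over all genes, 1.93% reached that unadjusted level with larger values in TC and 14.2% with smaller ones. Both genes are among the 5 small subunits. The split into these and 4 core and redox subunits was set once the values were known. Cytochrome c1 (CYC1) was at 184, 225 and 249 TPM in TC and at 259, 260 and 180 TPM in TM. The Rieske iron-sulfur protein UQCRFS1 was the lowest subunit of the complex, between 35.4 and 50.5 TPM over the 6 samples, and its same-named pseudogenes reached 32.7% of its TPM in a sample. The core proteins UQCRC1 and UQCRC2, which frame the matrix side of the complex, ranged from 400 to 531 TPM and from 76.1 to 107 TPM. The highest and lowest UQCRC1 and UQCRC2 values were all in TC samples. The log2 differences of these 4 genes lay between -0.118 and 0.016, and all 4 were positive after median-of-ratios rescaling (0.09 to 0.226).

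Among the small subunits, UQCRB (ENSG00000156467, chr8:96225920-96235634), which lies next to the coenzyme Q site, was at 287, 312 and 300 TPM in TC and at 255, 209 and 232 TPM in TM. All TC samples were above all TM samples. The difference was 0.373 (SE 0.121, 95% interval 0.096 to 0.649, limma adjusted p = 0.184) between means of 299.6 ± 12.5 and 231.8 ± 23.1 TPM (SD, n = 3 each). UQCRQ (ENSG00000164405, chr5:132866560-132868031), whose promoter stretch is given above, had the largest difference of the 38 genes, with 265, 328 and 431 TPM in TC and 286, 241 and 178 TPM in TM. Here TC sample 1 fell below TM sample 1, so the groups overlapped. The difference was 0.536 (SE 0.223, 95% interval 0.024 to 1.048, limma adjusted p = 0.289), and without TM sample 3 it was 0.349. The accessory subunit UQCR11 was at 76.0, 75.8 and 97.5 TPM in TC and at 62.1, 53.7 and 81.2 TPM in TM, UQCRH (the hinge protein that meets cytochrome c) ranged from 388 to 522 TPM, and UQCR10 from 125 to 172 TPM, all with overlap.

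Within each sample, the summed TPM of the 5 small subunits over that of the 4 core and redox subunits came to 1.67, 1.54 and 1.78 in TC, compared with 1.44, 1.27 and 1.34 in TM. The TC ratios were all higher (mean 1.66 ± 0.118 against 1.35 ± 0.0831, SD, n = 3 each), for groups of genes that were set once the values were known. UQCRB over UQCRC2 was at 2.69, 3.85 and 3.95 in TC and at 2.6, 2.41 and 2.33 in TM, with TC sample 1 close to the margin.

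**Figure D2:**
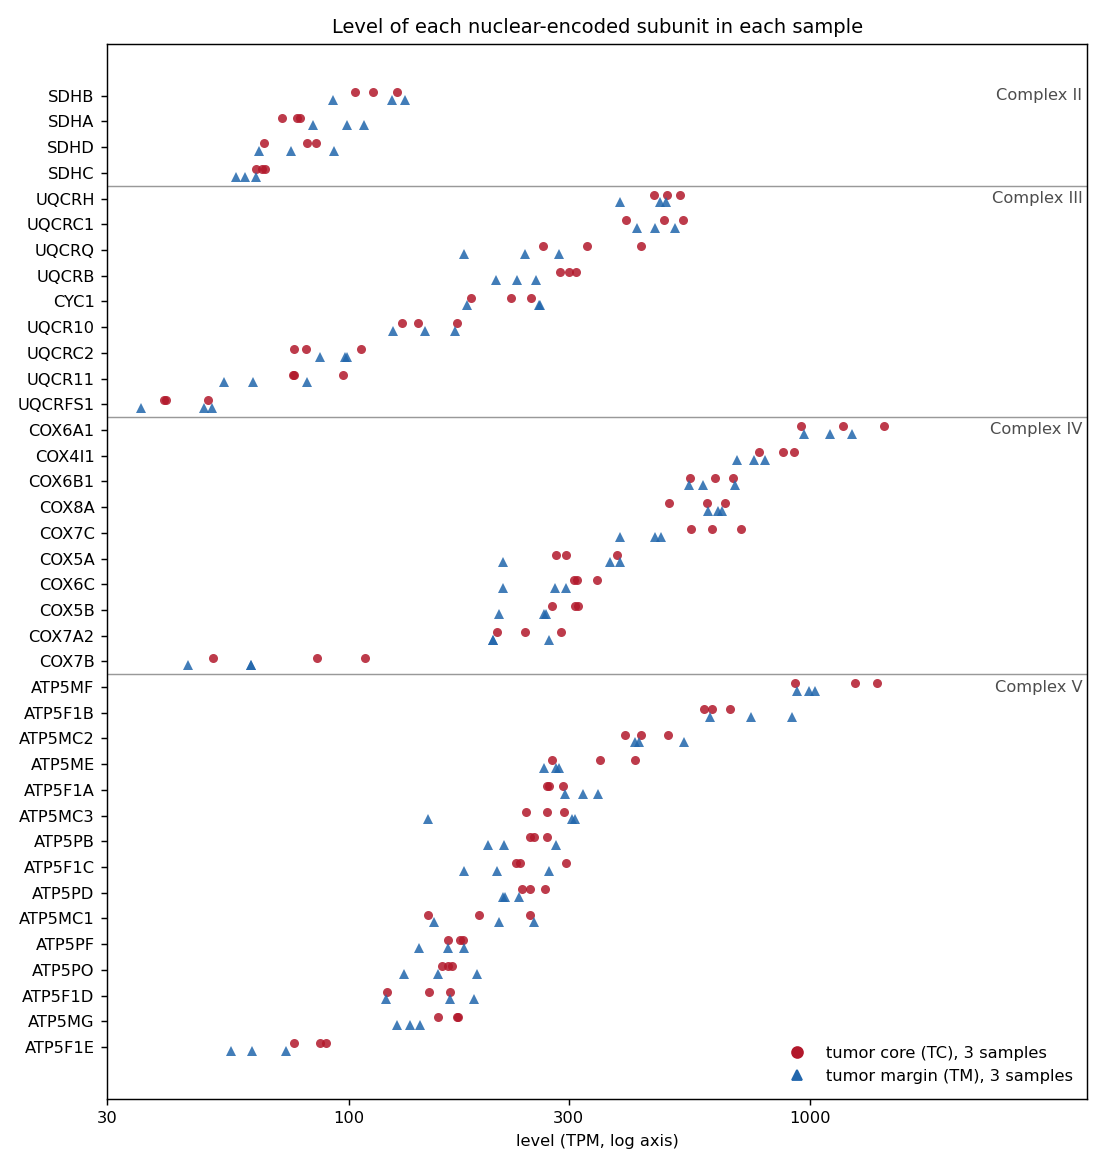
Level of each of the 38 subunits in each of the 6 samples, in TPM on a logarithmic axis, circles for TC and triangles for TM, ordered by mean level within each complex. Levels run from 35.4 TPM (UQCRFS1) to 1447 TPM (COX6A1), and for UQCRB, COX7C, COX5B, COX6C, ATP5F1E, ATP5MG and ATP5PD every circle lies to the right of every triangle.

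In complex IV, 9 of 10 genes were higher in TC from TPM as deposited, 10 of 10 after median-of-ratios rescaling and 7 of 10 after quantile normalization. Over all genes the shares were 33.0%, 56.1% and 51.7%. COX7C (ENSG00000127184, chr5:86617904-86620962), a small membrane-spanning subunit, had the smallest p of the 38 genes. It was at 553, 614 and 710 TPM in TC and at 462, 388 and 475 TPM in TM, with every TC sample above every TM sample. The difference was 0.501 (SE 0.141, 95% interval 0.177 to 0.825, limma adjusted p = 0.142) between means of 626 ± 79.0 and 441.5 ± 46.9 TPM (SD, n = 3 each). The ratio of COX7C to COX8A within a sample, picked once the values were known, came to 1.12, 0.937 and 1.19 in TC, compared with 0.73, 0.643 and 0.735 in TM.

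COX5B (ENSG00000135940, chr2:97646040-97648383), the zinc-binding subunit on the matrix side, was at 276, 314 and 310 TPM in TC and at 268, 266 and 211 TPM in TM. TC lay above TM by a narrow margin, and the difference was 0.277 (SE 0.135, limma adjusted p = 0.374), which was 0.166 without TM sample 3. Its matrix-side partner COX5A was at 297, 282 and 382 TPM in TC and at 369, 388 and 217 TPM in TM, with a difference of 0.015. COX6C was at 312, 308 and 346 TPM in TC and at 280, 216 and 297 TPM in TM, again without overlap. COX7B (on chromosome X) had a difference of 0.485 that came with a wide spread, since TC sample 1 was at 50.7 TPM and the others at 85.4 and 109 TPM, against 61.4, 61.3 and 44.9 TPM in TM.

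The remaining complex IV genes overlapped between core and margin. COX4I1, which binds ATP in the regulation of the enzyme, ranged from 694 to 925 TPM (log2 difference 0.193), and the adjacent gene EMC8, at 41.9 TPM on the opposite strand, shares part of its exons. COX6A1, the subunit with the highest mean of the 38, ranged from 956 to 1447 TPM (0.1), COX6B1 from 547 to 688 TPM (0.026) and COX7A2 from 205 to 289 TPM (0.116). COX8A ranged from 496 to 656 TPM, with a difference of -0.113 that became 0.097 after median-of-ratios rescaling. Ordered by mean level, COX6A1 stood apart from COX4I1, COX4I1 from COX6B1, and COX7A2 from COX7B at the bottom, each with all 6 samples of one gene above all 6 of the next, whereas the genes between COX6B1 and COX7A2 overlapped with their neighbours.

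The heart and muscle isoforms that can replace these subunits were at 0. COX6A2 and COX7A1 were listed at 0 TPM in all 6 samples. COX7B2, the isoform known from testis, was an exception that was picked once its values were known, with 105, 100.2 and 134 TPM in TC and 103, 90.2 and 84.4 TPM in TM. In 6 of 6 samples this exceeded the TPM of COX7B.

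The parts of the ATP synthase differed in the direction of their means. Its catalytic head is a ring of the α and β subunits, ATP5F1A and ATP5F1B, around a central shaft. ATP5F1A was at 291, 273 and 269 TPM in TC and at 347, 323 and 295 TPM in TM, and every TC sample was below every TM sample, with a difference of -0.208 that was 0.002 after median-of-ratios rescaling. ATP5F1B was at 590, 615 and 673 TPM in TC and at 915, 747 and 608 TPM in TM, so that TM sample 3 fell among the TC samples. Its difference was -0.256 and stayed below 0 at -0.045 after rescaling.

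The shaft is made of the γ, δ and ε subunits. ATP5F1E (ε, ENSG00000124172, chr20:59025467-59032382), the smallest of them, was at 76.2, 86.9 and 89.4 TPM in TC and at 73.3, 61.8 and 55.7 TPM in TM, without overlap. The difference was 0.405 (SE 0.146, 95% interval 0.070 to 0.740, limma adjusted p = 0.226) between means of 84.2 ± 6.99 and 63.6 ± 8.93 TPM (SD, n = 3 each). ATP5F1C (γ) ranged from 178 to 296 TPM with a difference of 0.222, and ATP5F1D (δ) from 121 to 187 TPM with a difference of -0.106, which was 0.104 after rescaling.

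In the membrane, the c subunits form the rotor and 3 nuclear genes encode the same mature c protein. ATP5MC2 gave 48.8% ± 3.84 of their summed TPM in TC and 50.7% ± 7.83 in TM, ATP5MC3 29.7% ± 1.34 and 27.0% ± 5.79, and ATP5MC1 21.5% ± 3.5 and 22.3% ± 3.07 (SD, n = 3 each). The mix of the 3 genes overlapped between core and margin. ATP5MC3 was at 148 TPM in TM sample 3 and between 243 and 309 TPM in the other samples, so that its TM spread came from that sample.

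The subunits e, f and g sit at the edge of the membrane part, where ATP synthases pair into dimers. ATP5MG (g, ENSG00000167283, chr11:118401154-118431496) was at 156, 172 and 172 TPM in TC and at 143, 136 and 127 TPM in TM, without overlap. The difference was 0.299 (SE 0.115, 95% interval 0.035 to 0.563, limma adjusted p = 0.256) between means of 166.7 ± 9.19 and 135.3 ± 7.81 TPM (SD, n = 3 each). ATP5ME (e) was at 275, 352 and 418 TPM in TC and at 265, 286 and 282 TPM in TM, and ATP5MF (f), the most abundant gene of the complex, at 931, 1252 and 1396 TPM in TC and at 1025, 994 and 937 TPM in TM. In both, TC samples 2 and 3 were above every TM sample, and TC sample 1 lay among the TM samples for ATP5ME and below all of them for ATP5MF. The peripheral stalk, which holds the head against the rotor, differed less, with ATP5PB at 0.154, ATP5PD at 0.172, ATP5PF at 0.092 and ATP5PO at 0.051 on the log2 scale, and of these ATP5PD had no overlap, from 238 to 267 TPM in TC and from 216 to 234 TPM in TM. Genes on the opposite strand share exon sequence with ATP5F1A (HAUS1, 26.0 TPM), ATP5PB (WDR77, 41.4 TPM) and ATP5PD (KCTD2, 19.3 TPM), and reads of such pairs may be mixed.

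In ratios within a sample, one scaling factor per sample cancels. The summed TPM of e, f and g over that of α and β came to 1.55, 2.0 and 2.11 in TC, compared with 1.14, 1.32 and 1.49 in TM. For γ, δ and ε the TC ratios were 0.491, 0.545 and 0.568 and the TM ratios 0.421, 0.38 and 0.427. For the peripheral stalk the TC ratios were 0.973, 0.911 and 0.915 and the TM ratios 0.649, 0.663 and 0.889. None of these 3 ratios overlapped between core and margin. The c subunit genes over α and β were at 0.895, 1.07 and 1.03 in TC and at 0.837, 0.912 and 0.805 in TM, which overlapped. The gene groups follow the parts of the enzyme, but they were compared once the values were known and no test was made.

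**Figure D3:**
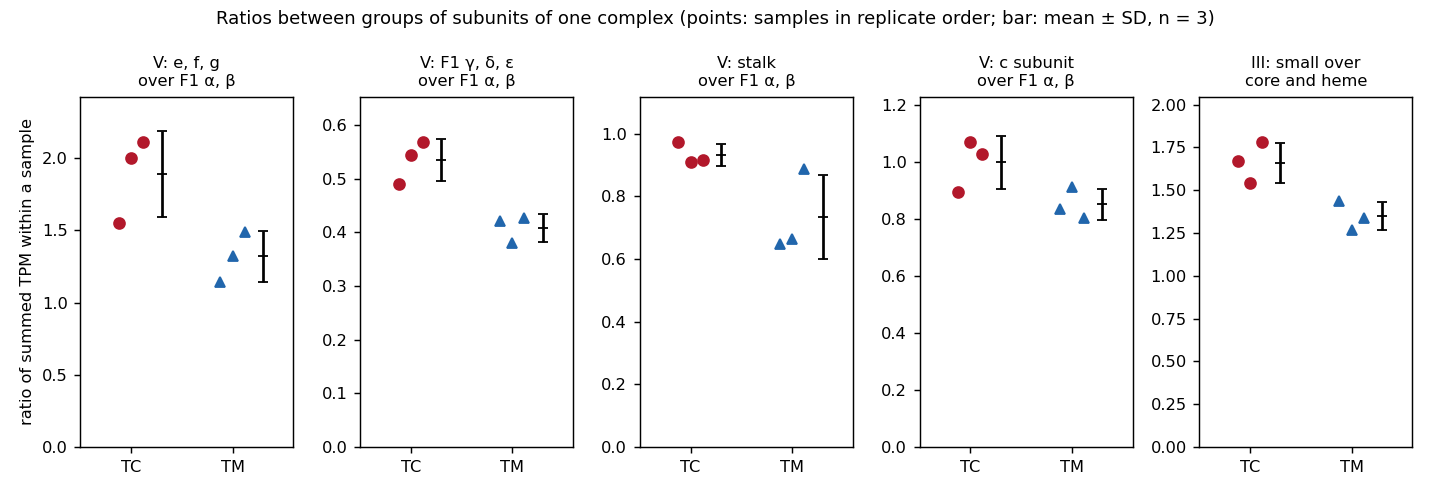
Ratios of summed TPM between groups of subunits of complex V (4 panels) and complex III (1 panel) in each sample, on linear axes from 0, circles for TC and triangles for TM, with bars for the mean ± SD (n = 3). Core and margin do not overlap except for the c subunit genes over α and β, where TC sample 1 (0.895) lies below TM sample 2 (0.912).

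Summed over its genes, complex II came to 325, 337 and 334 TPM in TC and to 364, 359 and 329 TPM in TM, a ratio of the means of 0.947. Complex III summed to 1949, 2225 and 2380 TPM in TC and 2116, 1855 and 1929 TPM in TM (ratio 1.11), complex IV to 4474, 5238 and 5737 TPM against 4899, 4402 and 4648 TPM (1.11), and complex V to 4322, 4910 and 5296 TPM against 5101, 4576 and 4165 TPM (1.05). The core and margin ranges overlapped in all 4, and the complex II ratio moved above 1 after median-of-ratios rescaling (log2 ratio 0.138). By gene, the median difference was -0.002 in complex II (2 of 4 higher in TC), 0.016 in complex III (6 of 9), 0.154 in complex IV (9 of 10) and 0.149 in complex V (10 of 15), against -0.136 over all genes. All 38 subunits together took 1.11%, 1.27% and 1.37% of the TPM of the TC samples and 1.25%, 1.12% and 1.11% of that of the TM samples.

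The partners made inside the mitochondrion had lower means in TC. MT-CYB, the cytochrome b of complex III, was at 1650, 1634 and 1073 TPM in TC and at 1734, 2211 and 2053 TPM in TM, with a difference of -0.481. The complex IV core subunits MT-CO1, MT-CO2 and MT-CO3 differed by -0.768, -0.534 and -0.253, and the complex V proton channel subunit MT-ATP6 and its neighbour MT-ATP8 by -0.544 and -0.703. All 6 were lower in TC from TPM as deposited and after median-of-ratios, quantile and GC and length rescaling. At an unadjusted p under 0.05, 5 of 6 were lower from TPM as deposited (14.2% of all genes) and 0 of 6 after median-of-ratios rescaling (6.7% of all genes). The count was 4 of 6 after quantile normalization (1124 of 13861 genes) and 3 of 6 with the GC and length trend removed (984 of 13772 genes). None passed the adjusted threshold (limma adjusted p from 0.151 to 0.522 from TPM as deposited). MT-ATP6 and MT-ATP8 overlap on one transcript and their reads cannot be told apart cleanly.

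Nuclear over mitochondrial TPM within a sample put core and margin partly apart. For complex III the TC ratios were 1.18, 1.36 and 2.22 and the TM ratios 1.22, 0.839 and 0.94. For complex IV they were 0.151, 0.262 and 0.247 in TC, compared with 0.164, 0.131 and 0.122 in TM. For complex V they were 0.163, 0.292 and 0.315 in TC, compared with 0.185, 0.143 and 0.125 in TM. In all 3 complexes TC samples 2 and 3 were above every TM sample, and TC sample 1 lay below TM sample 1. Mitochondrially encoded genes took 8.82%, 6.08% and 6.3% of the TPM in TC and 9.23%, 10.5% and 11.1% in TM, and with them left out of the total 21 of the 38 subunits were higher in TC with a median 0.235 above that of all genes.

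**Figure D4:**
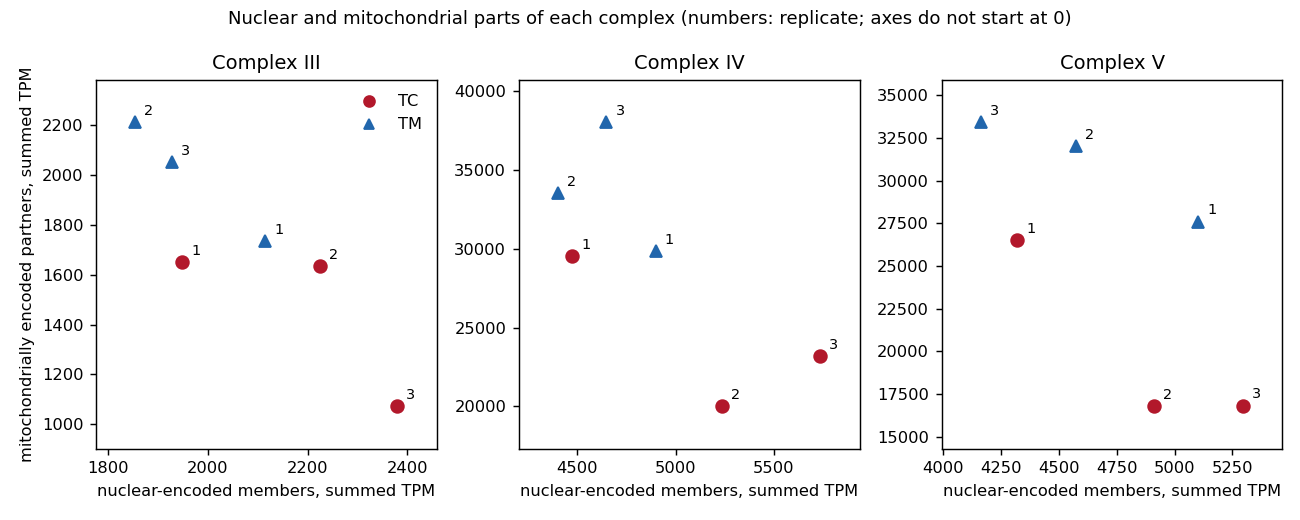
Summed TPM of the nuclear-encoded subunits (horizontal) and of their mitochondrially encoded partners (vertical) of complexes III, IV and V in each sample, circles for TC and triangles for TM, numbered by replicate, on linear axes that do not start at 0. TC samples 2 and 3 lie at the lower right in all 3 panels and TC sample 1 near the margin samples.

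The samples of a group were not alike in these genes. Relative to the shift of all genes in the same sample, the median subunit deviated by -0.085, 0.145 and 0.371 on the log2 scale in TC samples 1, 2 and 3 and by -0.166, -0.171 and -0.147 in the TM samples. TC sample 3 had the highest level for 16 of 38 subunits, and 32 of 38 were higher there than in TC sample 1. Their lowest level was in TM sample 3 for 14 and in TM sample 2 for 10. Leaving out TC sample 2 or TM sample 2 left 1 subunit higher at an unadjusted p under 0.05, without TC sample 3 there were 2, and without TC sample 1 there were 8. Without TM sample 3, 3 subunits were lower at that level, and 0 were lower with any other single sample left out. The share of all genes at that level may change with each sample left out and is not given here. These counts are therefore not read as a trait of the subunits. The median SD of the subunits was nonetheless lower than that of all genes, 0.166 against 0.238 in TC and 0.196 against 0.257 in TM (log2 scale). All genes tested include far lower levels than the subunits, and levels were not matched. COX7B, with an SD of 0.555 in TC, was among the subunits above the median of all genes.

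**Figure D5:**
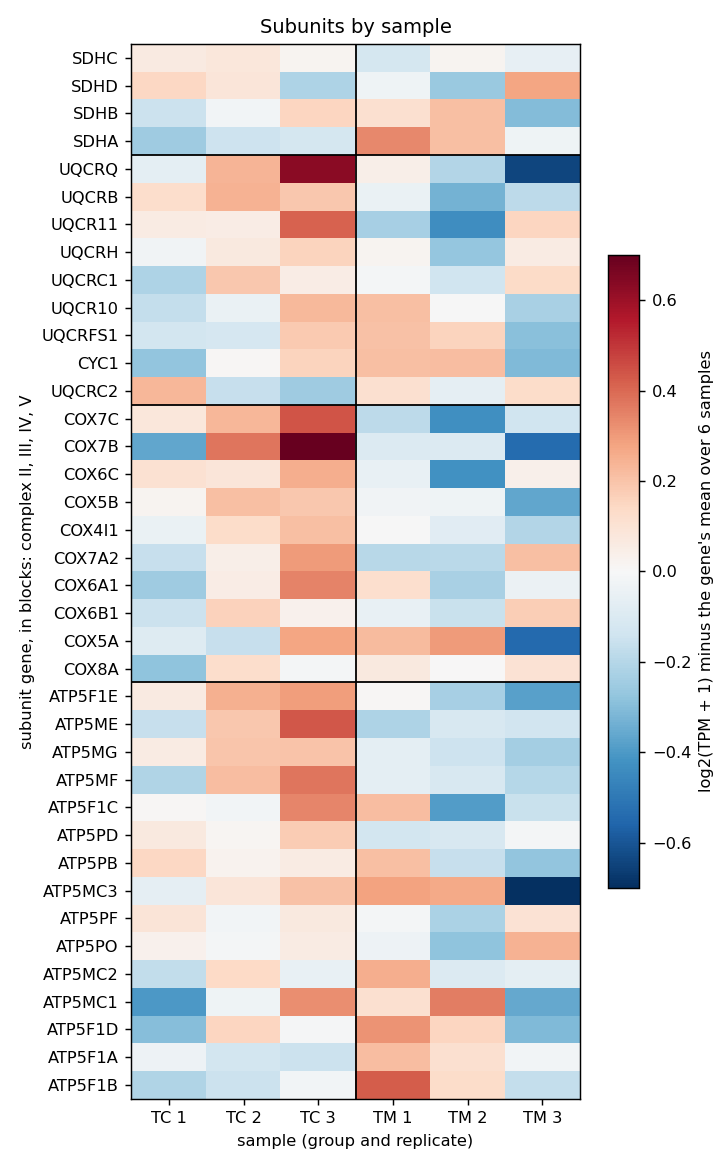
Level of each subunit in each sample as log2(TPM + 1) minus the gene's mean over the 6 samples, red above and blue below, rows in blocks by complex and columns by group and replicate, with colors capped at 0.7. TC sample 3 holds the highest level of 16 subunits, and TM sample 3 the lowest of 14.

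Among other cell types, markers of skeletal muscle and fibroblasts differed between samples, most of all between those of the margin. Macrophage markers summed to 88.4 to 101 TPM in TC and 92.4 to 104 TPM in TM, with CD68 alone at 84.8 to 93.5 and 84.8 to 94.2 TPM. Endothelial markers summed to 59.6 to 74.0 TPM in TC and 63.7 to 78.6 TPM in TM. Adipocyte and erythroid markers summed to at most 1.41 and 6.93 TPM in a sample. Marker genes of skeletal muscle (15 of 16 listed were matched) summed to 8.73 to 12.4 TPM in TC and to 275, 694 and 6.3 TPM in TM samples 1, 2 and 3, and those of fibroblasts (12 of 12) to 67.7 to 227 TPM in TC and to 481, 1009 and 95.3 TPM in TM. Of the 15 muscle markers, 13 in TM sample 1 and 14 in TM sample 2 were above every TC sample, DES at 75.7 and 153 TPM, while MB was at 0 in both and PVALB in TM sample 1. Of the 12 fibroblast markers, 9, 8 and 3 were above every TC sample in TM samples 1, 2 and 3. COL1A1 alone was at 698 TPM in TM sample 2. LUM was at 0 in TM samples 1 and 2, and DCN in TM samples 2 and 3. The part of muscle and fibroblast RNA in the subunit differences from TM samples 1 and 2 was not tested beyond leaving those samples out. Without TM samples 1 and 2, 28 of 38 subunits were higher in TC and their median was 0.308 above that of all genes, with the lone TM sample assumed to vary like the others. Markers of the MDA-MB-231 line summed to 5311 to 6832 TPM in all samples, most of it from VIM, which alone was at 3797 to 5283 TPM. This sum is therefore no measure of the share of tumor cells. ESR1 and PGR were near 0, and ERBB2 was at 22.3 to 24.1 TPM in TC and 30.8 to 40.7 TPM in TM. In bulk tissue, fewer cells of a type and less RNA per cell cannot be told apart, and no separation of mouse from human reads is described.

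The difference was related to base composition and more weakly to transcript length. The subunit genes are short, with a median coding transcript length of 672 bases against 1770 bases for all coding genes tested. Over all coding genes, the median difference was -0.046 below 600 bases and -0.076 from 600 to under 800 bases. It was -0.068 from 800 to under 1200 bases, -0.123 from 1200 to under 2000 bases and -0.187 at 2000 bases or more. The 12 subunits in the first of these classes had a median of 0.104 and the 14 in the second 0.235. The 6 in the third had a median of -0.025, the 4 in the fourth 0.085 and the 2 in the last -0.194. As a description, Spearman's rho between the difference and GC content was -0.401 over the 38 subunits and -0.335 over all 11803 coding genes. For coding transcript length it was -0.203 and -0.163. Genes of one sample share a library and are not independent. With the trend on GC and length removed, 34 of 38 subunits were higher in TC, where 52.0% of all genes were, and their median was 0.22 above that of all genes. What RNA quality or degradation contributed was not tested.

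Genes that work with these complexes were read from lists, each against the same fit, in which 33.0% of all genes were higher in TC (median -0.136). Of 38 assembly factors, 18 were higher and 20 lower in TC (median -0.006). BCS1L, which inserts the Rieske protein into complex III, was at 14.96, 18.7 and 16.3 TPM in TC and at 35.9, 21.8 and 34.2 TPM in TM (difference -0.814, limma adjusted p = 0.130). CMC1, COX16 and COX20, which help build complex IV, differed by 0.484, 0.445 and 0.390. The Rieske protein gene UQCRFS1 itself differed by -0.044.

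The accessory and tissue-restricted subunits not counted among the 38 were measured in 9 of 16 cases, and 8 were higher in TC (median 0.378). NDUFA4, an accessory subunit of complex IV, was at 92.7, 90.1 and 121 TPM in TC and at 75.9, 63.1 and 69.6 TPM in TM. ATP5MJ, a small subunit of complex V, was at 124, 145 and 181 TPM in TC and at 111, 95.2 and 115 TPM in TM. COX7A2L, which joins complexes III and IV into supercomplexes, and HIGD1A, a supercomplex-associated protein, differed by 0.597 and 0.378. For 6 of the 9, these 4 included, every TC sample lay above every TM sample (3.28% of all genes), but none passed the adjusted threshold.

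Among the genes for electron carriers, ADP exchange and coenzyme Q synthesis, 11 were higher and 10 lower in TC (median 0.003), with COQ4 at -0.338. The transcription factors and coactivators that drive respiratory chain genes were mostly lower, 11 of the 12 measured (median -0.254). Most genes of the matrix were lower too, with 33.0% higher in TC, and the regulators' median was 0.119 below that of all genes. PPRC1, a coactivator related to PGC-1, was at 24.7, 26.4 and 32.0 TPM in TC and at 54.1, 53.0 and 41.3 TPM in TM (difference -0.812, limma adjusted p = 0.0843). MYC and NRF1, the latter the factor whose letters were searched in the promoters, differed by -0.557 and -0.585. After median-of-ratios rescaling, 30 of 38 assembly factors, 17 of 21 carrier and coenzyme Q genes and 4 of 12 regulators were higher in TC, where 56.1% of all genes were. None of the genes in these lists was called after adjustment in either scaling.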

How the data were processed

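Total RNA of 3 TC and 3 TM samples was sequenced (TruSeq kit, paired ends). Per the labels and the study's methods, the authors trimmed reads with SeqPrep and Sickle, aligned them to hg38 with HISAT2, assembled them with StringTie, quantified them with RSEM and deposited TPM per gene. Tool versions, the annotation release and a separation of mouse reads are not given in the sources used here. TPM fixes the total of each sample (1000000, and 994381 in TM sample 3), so sequencing depth is unknown, no counting interval can be given, and a large change in abundant genes shifts all others. The study's count model, DESeq2 in its methods, could not be used on TPM. All 6 value columns were mapped to samples, and 0 others were present.

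Gene symbols came from the reference name table (60401 of 60671 annotated genes matched), and positions, lengths and GC content from GENCODE release 29. Assembled loci outside the annotation (259) were left out. They took 21.1 TPM in TM sample 3 and 1570 to 2640 TPM in the other samples, and the reason was not tested. Genes reaching 1 TPM in 3 or more samples were tested with limma 3.58.1 (R 4.3.3) on log2(TPM + 1), with a mean-variance trend, two-sided, no covariate, and Benjamini-Hochberg adjustment over 13861 genes. A fold change on this scale understates that of low genes. In simulated data for this comparison, 82% of 200 genes changed by 2 on the log2 scale were recovered among 13861. The largest subunit difference was 0.536, and recovery of changes of that size was not simulated. Full statistics are given for the 2 subunits of each complex with the smallest p. From other lists, all mitochondrially encoded partners, at most 4 genes per pathway list at an unadjusted p under 0.05 and the isoforms COX6A2 and COX7A1 are named. COX7B2, the marker genes and the genes that overlap a subunit were named outside this rule. The subunits and lists were chosen with earlier results of these data known. Lists are described by counts and medians without a test. Alternatives covered pseudocount, filters, scaling, mitochondrially encoded genes, unannotated loci, variance model, GC and length, a replicate block and left-out samples.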

Additional observations from a re-analysis of the deposited data

How the results depend on the processing

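No subunit was called under any of the 18 alternatives. The number of subunits higher in TC, 27 from TPM as deposited, lay between 21 and 36 over them (22 to 32 with 1 sample left out). For the 8 subunits with full statistics all 144 alternative values kept their direction and stayed on the same side of the adjusted threshold. These 8 were picked for the smallest p of their complex, so a stable direction was likely from the choice. Few genes of any kind passed the adjusted threshold. The other 30 subunits did not all keep their direction, and COX8A went from -0.113 to 0.097 with median-of-ratios factors. The number of genes called in the whole matrix (19) was less stable, with 7 at a pseudocount of 0.1, 1 without a filter, 4 after quantile normalization, 6 with median-of-ratios factors, 12 without a variance trend, 47 with a robust one, 9 with the GC and length trend removed and 195 with TM samples 1 and 2 both left out. With 1 sample left out it ranged from 1 (without TC sample 3 or TM sample 1) to 17, with 4 without TC sample 1 and 9 without TM sample 2. With the replicate number as a block it was 1, and 2 subunits had an unadjusted p under 0.05, given here without the share of all genes. The samples were analysed as unpaired because the study does not say that same-numbered samples came from the same mouse. The paper used paired t-tests for other comparisons of core and margin tissue. Deviations of same-numbered samples had correlations of 0.211, -0.121 and -0.165, and those of differently numbered samples lay between -0.232 and 0.317. With 3 samples a group these correlations cannot decide whether the samples were paired. Median-of-ratios factors moved the log2 ratios of the complex sums from -0.078 to 0.138 (II), 0.152 to 0.376 (III), 0.147 to 0.372 (IV) and 0.070 to 0.297 (V). The cause was not tested. The 95% intervals of 32 of the 38 subunits included 0, which with 3 samples a group does not show that they were equal, and TPM keeps no depth.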
